A study of Caenorhabditis elegans with 12 samples.

Results

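At 4 places in the *C. elegans* genome, ATAC-seq counts from sorted muscle set 1 strain apart from the others. The windows concerned covered 1700 to 8850 bp, and the stretch up to the nearest other windows was longer, up to 27748 bp. These places held 14 of the 51519 counted windows and belonged to 9 named genes. On chromosome IV they were the first start windows of *phkb-1* (3 windows), 1 window of a transcript without a gene name in the reference, and Y67D8A.10 (IV:3218391-3222640, ce10). On chromosome V they were *irld-45* (2 windows, V:1646800-1648530) and Y58A7A.3 (1 window, V:5081024-5082723). On chromosome III they were *immp-1*, *gbf-1*, *mdt-21*, C24H11.5 (2 windows) and *srd-74* (III:11773350-11782199). The windows were chosen by the measured counts, as places where the counts of 1 genotype stood apart from the rest, so their own values are a description and were not tested. The windows around them were tested. They are those left over beside the chosen places, so a neighbour with the same change would have been chosen too. That they lack the change is therefore partly fixed by the choice.

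Chromatin accessibility had been measured in body wall muscle cells sorted from L3 larvae, with 3 libraries for each of 4 genotypes. These were the *met-2(n4256) set-25(n5021)* mutant, the *met-2(n4256)* mutant, the *set-25(n5021)* mutant and the wild type (WT), which the labels give as N2 (Bristol). MET-2 and SET-25 are histone methyltransferases that methylate lysine 9 of histone H3 (H3K9), the mark of heterochromatin. The *met-2 set-25* mutant carries both alleles, and both genes lie on chromosome III. Each genotype was 1 strain, and all strains are listed with an integrated array in which the *myo-3* promoter drives RFP, by which the muscle cells were sorted. Genotype and strain therefore cannot be told apart in these data. The study describes the libraries as independent biological replicates. The growth protocol in the labels speaks of 2 such replicates where 3 libraries are listed, and p-values below measure the spread between these libraries.

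ATAC-seq uses a transposase that inserts sequencing adaptors into DNA, preferentially where the DNA is not wrapped into nucleosomes. The number of reads from a place therefore depends on how accessible it is and also on how many copies of it the genome holds. No genomic DNA library was used here, so accessibility and copy number cannot be told apart at any of these loci.

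Each window spanned 1700 bp, from 1500 bp upstream to 200 bp downstream of an annotated transcript start, and values are given as CPM, the usual scaling of a count by the library's total over all windows. Library totals ranged between 84807679 and 102572232 counts for *met-2 set-25*, 73007383 and 105547683 counts for *met-2*, 68843022 and 78074609 counts for *set-25*, and 50148450 and 79463030 counts for WT. The median window had a mean of 18.2, 18.8 and 19.01 CPM in *met-2 set-25*, *met-2* and *set-25*, against 18.8 CPM in WT, and 5% of windows lay below 11.54, 12.2 and 12.3 CPM in these mutants and 12.1 CPM in WT. The labels were checked at the window of 21ur-12617, which lies inside *set-25* and had 5.42 to 5.59 CPM in *met-2 set-25* and 5.98 to 6.50 CPM in *set-25*, and 22.3 to 23.18 CPM in *met-2* and 21.8 to 23.6 CPM in WT. The start window of *met-2* had 20.7 to 24.1 CPM in all 12 libraries, and where the deletions of the 2 alleles end is not given in the sources used here, so it checks nothing. The 11 muscle marker genes had a median of 34.0, 28.0 and 25.1 CPM in *met-2 set-25*, *met-2* and *set-25*, and 26.3 CPM in WT. The medians of the marker lists for intestine, hypodermis, neurons, pharynx and germline lay between 17.6 and 22.5 CPM in every genotype.

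*phkb-1* encodes the regulatory beta subunit of phosphorylase kinase, the enzyme that switches on glycogen breakdown. Its first start window (IV:3220937-3222636) had 11.3, 11.8 and 11.53 CPM in the *met-2 set-25* libraries, 11.4, 11.2 and 11.1 CPM in *met-2*, and 12.3, 11.9 and 11.8 CPM in *set-25*, against 0.0199, 0.0503 and 0.0409 CPM in WT. All 9 mutant libraries were thus at a level that a window in the lower part of the genome-wide range has, and the WT libraries were nearly empty. In counts, the window held 1010, 1214 and 978 for *met-2 set-25*, 834, 1186 and 924 for *met-2*, and 846, 928 and 877 for *set-25*, against 1, 4 and 3 for WT. The fold of summed, depth-scaled counts over WT was 293 for *met-2 set-25* (149 to 680), 285 for *met-2* (145 to 661) and 304 for *set-25* (154 to 704), with exact 95% intervals that cover counting error only. The 3 mutants were close to each other, with means of 11.6 ± 0.269 CPM in *met-2 set-25*, 11.3 ± 0.166 CPM in *met-2* and 11.98 ± 0.276 CPM in *set-25* (SD, n = 3 each).

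The remaining 3 windows of this start, 1 of them that of the unnamed transcript, were shifted by a few bases and shared nearly all of their reads with the first. They are the same observation and each held 8 counts over the 3 WT libraries.

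Y67D8A.10, a non-coding transcript just upstream (IV:3218391-3220090), showed the same split at a smaller size. It had 13.3, 12.1 and 12.4 CPM in *met-2 set-25*, 12.8, 13.6 and 12.1 CPM in *met-2*, and 13.4, 12.9 and 14.5 CPM in *set-25*, against 3.41, 3.15 and 2.95 CPM in WT. No mutant library overlapped a WT library, as in 27.5% of all windows for *met-2 set-25*, 9.71% for *met-2* and 12.9% for *set-25*. The folds over WT were 3.98, 4.06 and 4.30 in *met-2 set-25*, *met-2* and *set-25*. WT kept 24.3% of the mutant level here, whereas it kept almost none in the neighbouring *phkb-1* windows. The fraction of the Y67D8A.10 window that the WT reads came from cannot be seen in a total over 1700 bp.

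*irld-45* belongs to a family of genes for proteins with an extracellular ligand-binding domain like that of the insulin and EGF receptors. Its first window (V:1646800-1648499) had 10.9, 9.90 and 11.3 CPM in *met-2 set-25*, 11.4, 11.7 and 11.52 CPM in *met-2*, and 12.1, 11.98 and 11.47 CPM in *set-25*, against 19.7, 20.2 and 22.8 CPM in WT. Here too WT stood apart from all 9 mutant libraries, but as the higher genotype. The folds over WT were 0.512, 0.553 and 0.566 in *met-2 set-25*, *met-2* and *set-25*, and 0.529, 0.573 and 0.585 in the second window, which starts a few bases further on and overlaps the first almost entirely. In rank the 3 mutants put this window at percentile 3.93, 4.25 and 4.38 of all tested windows, and WT at percentile 72.3. The *irld* genes form a multigene family, and how reads that map to more than 1 place were treated is not given in the sources used here, so counts at *irld-45* carry that uncertainty.

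Y58A7A.3, to which no role is given here, had counts almost only in *set-25*. Its window (V:5081024-5082723) held 4, 0 and 0 counts for *met-2 set-25*, 0, 0 and 2 for *met-2*, and 1496, 1879 and 1686 for *set-25*, against 0, 0 and 0 for WT. In *set-25* this came to 21.7, 24.1 and 22.6 CPM, or 22.8 ± 1.18 CPM (SD, n = 3), which put the window at percentile 88.2 of all windows of that genotype. *set-25* was at least 363-fold higher than WT, taking as floor 3 counts in the shallowest WT library (0.0598 CPM). The *met-2 set-25* mutant, which carries the same *set-25* allele, was not high. The fold of *set-25* over *met-2* was 2992 (828 to 24710, exact 95% counting interval), and that of *set-25* over *met-2 set-25* was 1581 (617 to 5805).

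**Figure D1:**
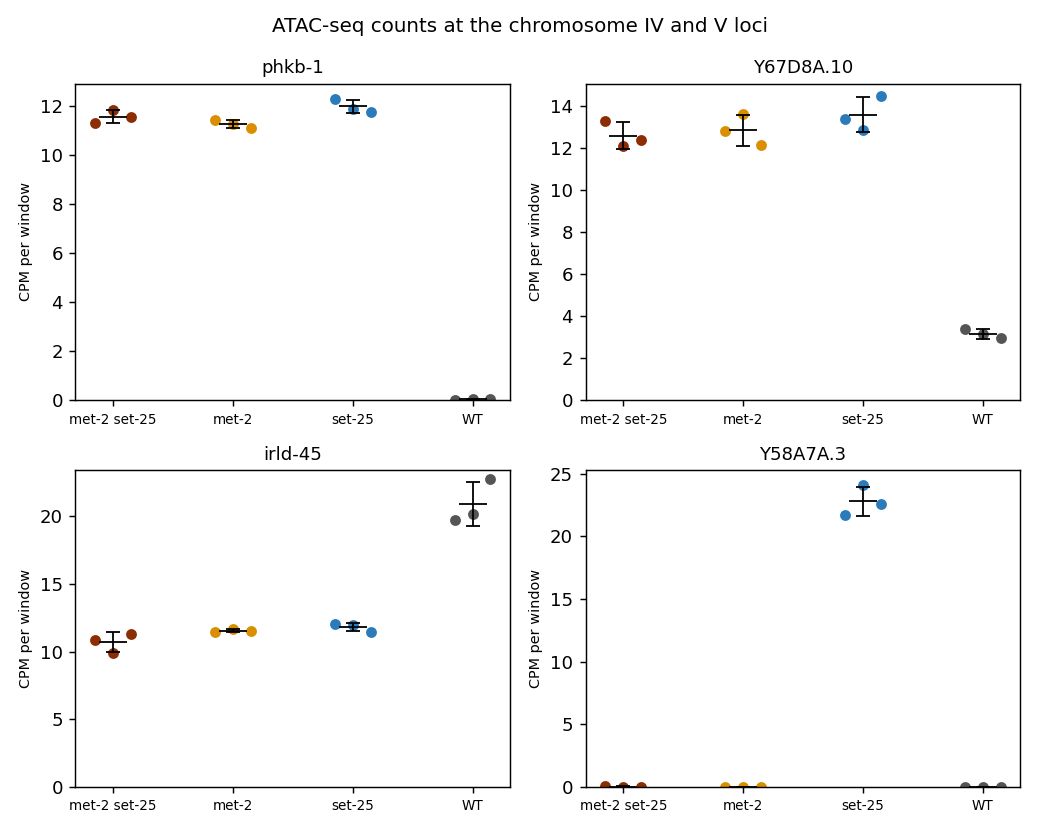
ATAC-seq level (CPM per 1700 bp window, linear axes that start at 0) in each library at the first *phkb-1* window, Y67D8A.10, the first *irld-45* window and Y58A7A.3. Points are libraries, and bars give the mean and SD of 3. WT lies lowest at *phkb-1* and Y67D8A.10 and highest at *irld-45*, and at Y58A7A.3 only the *set-25* libraries, at 21.7 to 24.1 CPM, lie visibly above 0.

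On chromosome III, 6 windows of 5 genes were higher in *met-2* than in the 9 other libraries. The genes have unrelated roles. *immp-1* encodes a homologue of the inner mitochondrial membrane peptidase, *gbf-1* a guanine nucleotide exchange factor for Arf GTPases of the Golgi, *mdt-21* a subunit of the Mediator complex that links transcription factors to RNA polymerase II, and *srd-74* a chemoreceptor of the serpentine class delta. C24H11.5 is given no role here.

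*immp-1* had 9.98, 10.6 and 10.6 CPM in *met-2 set-25*, 19.3, 21.6 and 19.9 CPM in *met-2*, and 9.67, 9.85 and 10.4 CPM in *set-25*, against 10.9, 10.7 and 10.7 CPM in WT. The *gbf-1* window faces the other strand and covers nearly the same DNA, and since reads were counted without regard to strand the pair is 1 observation. It had 9.54, 10.2 and 10.3 CPM in *met-2 set-25*, 18.5, 21.2 and 19.6 CPM in *met-2*, and 9.56, 9.94 and 10.1 CPM in *set-25*, against 10.6, 10.3 and 10.3 CPM in WT. Only the *met-2* libraries lay away from the others in both windows.

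*mdt-21* had 11.1, 10.9 and 10.4 CPM in *met-2 set-25*, 21.9, 20.2 and 22.6 CPM in *met-2*, and 12.04, 11.9 and 12.002 CPM in *set-25*, against 12.1, 10.2 and 11.3 CPM in WT. The first C24H11.5 window had 8.35, 8.18 and 6.87 CPM in *met-2 set-25*, 14.9, 16.3 and 17.9 CPM in *met-2*, and 8.69, 8.04 and 8.80 CPM in *set-25*, against 8.89, 8.56 and 8.91 CPM in WT. The second C24H11.5 window overlaps the first, and its means were 9.88 CPM in *met-2 set-25*, 20.0 CPM in *met-2* and 10.4 CPM in *set-25*, against 10.5 CPM in WT. In each of these windows the lowest *met-2* library was higher than every library of the 3 other genotypes.

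*srd-74*, at the right end of the locus, was the highest of the 6 windows in every genotype. It had 17.005, 15.3 and 15.6 CPM in *met-2 set-25*, 32.8, 31.4 and 34.7 CPM in *met-2*, and 18.1, 16.2 and 17.9 CPM in *set-25*, against 15.4, 16.99 and 17.3 CPM in WT. The fold of *met-2* over the 9 other libraries was nonetheless alike along the locus, between 1.90 and 1.98 in the 6 windows, with a median of 1.96. Against WT alone it lay between 1.86 and 1.99.

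The *met-2 set-25* mutant carries the same *met-2* allele and did not share this level. Its mean was 0.888 to 0.966 times that of WT in the 6 windows, and 0.476 to 0.512 times that of *met-2*. In rank, *srd-74* lay at percentile 26.5 of all tested windows for *met-2 set-25*, 98.7 for *met-2* and 29.7 for *set-25*, and 24.96 for WT, and *immp-1* at percentile 3.47, 67.9 and 2.63 in these mutants and 3.39 in WT.

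**Figure D2:**
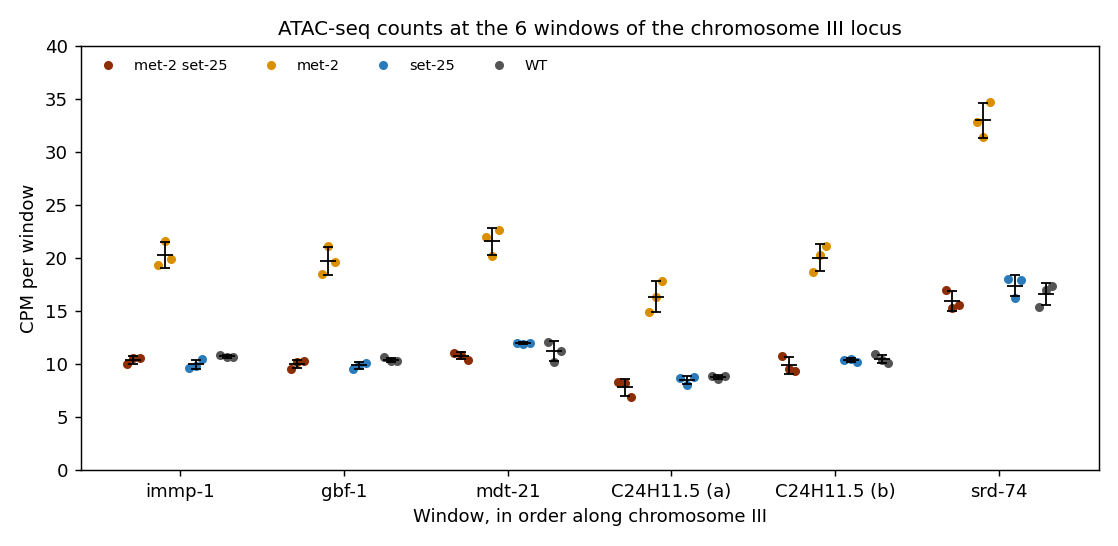
ATAC-seq level (CPM per 1700 bp window, linear axis that starts at 0) at the 6 windows of the chromosome III locus in their order along the chromosome, for *met-2 set-25*, *met-2*, *set-25* and WT. Points are libraries, and bars give the mean and SD of 3. The 3 *met-2* libraries lie above all others in each window, at a fold of 1.90 to 1.98.

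At all 4 loci the libraries of 1 genotype lay close to each other, which the choice of the windows favours. In the 49 combinations of window and genotype with a mean above 1 CPM, the coefficient of variation over 3 libraries was 0.323% to 10.3%, with a median of 3.94%. The median over all windows was 4.40%, 4.61% and 4.23% for *met-2 set-25*, *met-2* and *set-25*, against 5.06% for WT.

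The same pattern was then counted over the genome. In all 14 windows the genotype that stood apart did not overlap the 9 other libraries, which the choice of the windows fixed. Of all tested windows, 1.04% did so for WT, 2.77% for *set-25* and 0.371% for *met-2*. With a further limit of 0.5 on the log2 ratio, 9 windows (0.0176%) remained for WT, 1 (0.00195%) for *set-25* and 16 (0.0312%) for *met-2*. The members were 7 of the 9, the 1, and 6 of the 16. For *met-2 set-25* 11.3% of windows did not overlap the 9 other libraries and 38 (0.0741%) met both conditions, and none of them was a member. Among the 50716 windows made of a single interval, 5 had a mean below 0.1 CPM in WT and above 5 CPM in another genotype, 1 did so for *met-2* and 1 for *met-2 set-25*, and all of these were windows of *phkb-1*, of the unnamed transcript there or of Y58A7A.3.

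How far each change reached was read from the windows of other starts within 30 kb on each side that did not overlap a member, 95 in all with 83 distinct sets of counts. In them the genotype that stood apart at the locus had a mean 0.867 to 1.098 times that of the 9 other libraries at the 19 windows around *phkb-1* (WT over the mutants), 0.929 to 1.09 times at the 38 around *irld-45* (WT over the mutants), 0.857 to 1.104 times at the 23 around Y58A7A.3 (*set-25* over the others) and 0.934 to 1.16 times at the 15 around the chromosome III locus (*met-2* over the others). The medians were 1.02, 0.992, 1.01 and 0.986. That these lie near 1 is partly fixed by the choice, since a neighbour with the same change would have been a member. In 2 of the 95 windows that genotype did not overlap the other libraries, *irld-42* near *irld-45* at 0.929 times and *srab-2* near Y58A7A.3 at 1.104 times, both named here after their values were seen. Over all windows this was so in 1.04% for WT and 2.77% for *set-25*, so 1 window in each of these flanks is near the background.

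Each locus is bounded here by the nearest windows in which its genotype did not stand apart. A bounding window is a total over 1700 bp, so a change that reaches into part of it cannot be seen. At *phkb-1* the affected windows covered 4250 bp. The nearest windows in which WT did not stand apart from the 9 mutant libraries were those of *slmp-1* on the left and Y67D8A.9 on the right. The stretch between them was IV:3213957-3231560 (17604 bp). *slmp-1* had 11.9, 9.83 and 8.53 CPM in *met-2 set-25*, 10.9, 11.3 and 10.96 CPM in *met-2*, and 10.5, 9.82 and 10.7 CPM in *set-25*, against 11.8, 10.9 and 11.2 CPM in WT, and WT lay within the range of the mutant libraries there. *phkb-1* itself has 9 further start windows (6 distinct sets of counts) in the flank, between IV:3235348 and IV:3251921, with 9.96 to 18.8 CPM per library. None of the 9 was called in any contrast, and their log2 fold changes over WT ran between -0.17 and 0.09 for *met-2 set-25*, -0.08 and 0.06 for *met-2*, and -0.17 and 0.08 for *set-25*. Over all windows the called shares were 4.17% for *met-2 set-25*, 0.101% for *met-2* and 0.0273% for *set-25* over WT, so a count of 0 in 9 windows is near the background.

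At *irld-45* the affected windows covered 1731 bp, bounded by *alh-2*, an aldehyde dehydrogenase gene, and by *irld-44*, within V:1644369-1649844 (5476 bp). *irld-44*, the nearest family member, had 18.5, 15.9 and 18.96 CPM in *met-2 set-25*, 17.6, 18.5 and 20.1 CPM in *met-2*, and 19.3, 21.5 and 19.1 CPM in *set-25*, against 21.6, 19.6 and 20.5 CPM in WT. Its log2 fold change was -0.20 in *met-2 set-25* over WT (SE 0.063, adjusted p = 0.0277, edgeR quasi-likelihood test with Benjamini-Hochberg adjustment), which is above the threshold of 0.01 used for every call. The 5 *irld* genes of the flank (6 windows) and its 5 nuclear hormone receptor genes (18 windows, 11 distinct) held no called window in any contrast, beside 0.0273% to 11.4% of all windows called in the 7 contrasts. Of the 38 windows of this flank 2 were called, both on its left and both when *met-2 set-25* was set over *set-25*, where 11.4% of all windows were called. They were Y46H3D.1 (log2 fold change -0.24, SE 0.058, adjusted p = 0.00191) and Y46H3D.8 (-0.22, SE 0.060, adjusted p = 0.00634), named after their values were seen, and neither was called with the share of counts in high windows as a covariate.

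At Y58A7A.3 the affected window covered 1700 bp, bounded by Y58A7A.2 and Y58A7A.4 within V:5073668-5084808 (11141 bp). Y58A7A.2 had 16.5, 17.1 and 16.6 CPM in *met-2 set-25*, 16.6, 16.3 and 16.8 CPM in *met-2*, and 18.1, 17.1 and 15.7 CPM in *set-25*, against 17.1, 17.1 and 15.2 CPM in WT. The *set-25* libraries did not stand apart from the 9 others in either neighbour. In Y58A7A.4 *met-2 set-25* was higher than *set-25* (log2 fold change 0.28, SE 0.061, adjusted p = 0.000668), with 20.6, 22.1 and 20.3 CPM in *met-2 set-25* and 17.6, 17.3 and 17.3 CPM in *set-25*. In this contrast 11.4% of all windows were called, and Y58A7A.4 was not called with the share of counts in high windows as a covariate.

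On chromosome III the affected windows covered 8850 bp. The stretch between the bounding windows was III:11758014-11785761 (27748 bp), because the next window on the left is 15336 bp away. That window is another start of *gbf-1* (III:11756314-11758013), with 15.6, 14.2 and 13.0 CPM in *met-2 set-25*, 14.8, 17.1 and 18.1 CPM in *met-2*, and 15.2, 14.2 and 14.99 CPM in *set-25*, against 13.9, 13.4 and 14.4 CPM in WT. The *met-2* libraries were above the WT libraries and overlapped those of the 2 other mutants. The log2 fold change over WT was 0.26 (SE 0.074, edgeR quasi-likelihood test, unadjusted p = 0.000863, adjusted p = 0.328). Whether the change reaches into this window cannot be told from its total. For *met-2 set-25* over *met-2* the log2 fold change of this window was -0.23 (SE 0.073, adjusted p = 0.0608). On the right *tbx-38*, a T-box transcription factor gene, had 20.1 CPM in *met-2 set-25*, 21.2 CPM in *met-2* and 22.2 CPM in *set-25*, against 21.1 CPM in WT.

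**Figure D3:**
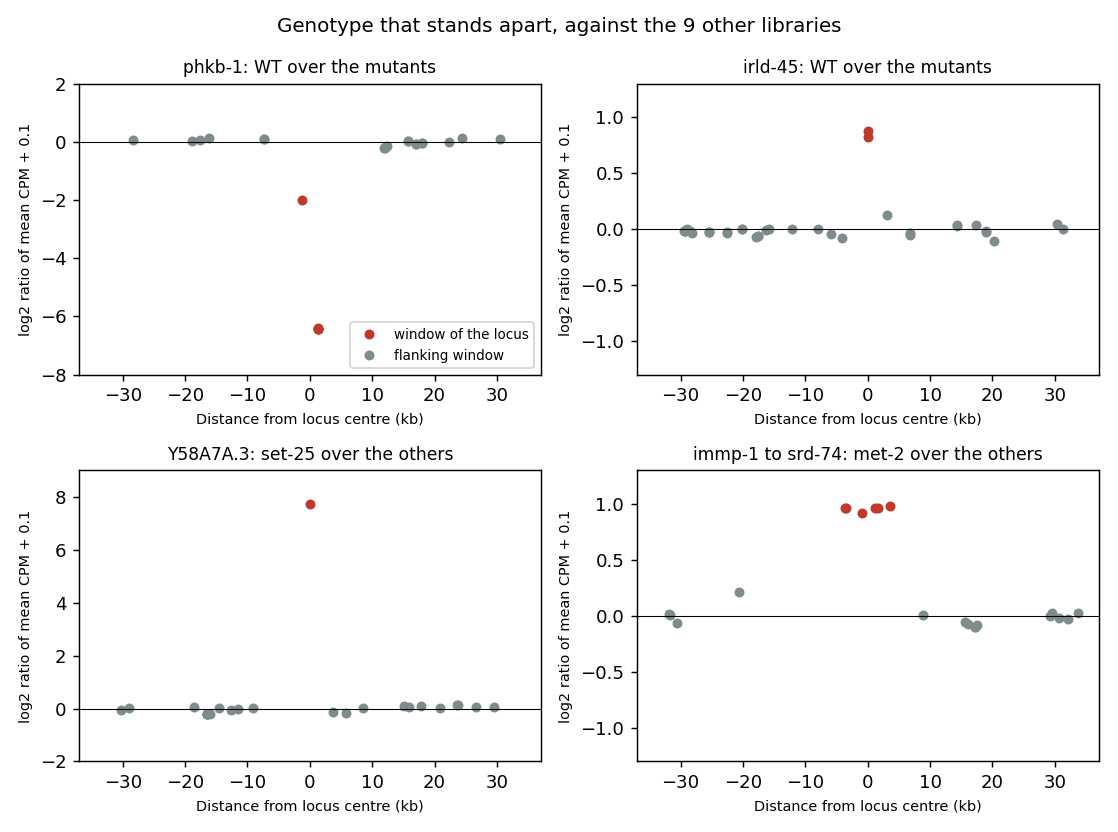
Log2 ratio of mean CPM (pseudocount 0.1 CPM) of the genotype that stood apart over the mean of the 9 other libraries, against the distance of each window's centre from the centre of the locus (kb), for the windows of the 4 loci and the flanking windows. WT is set over the mutants at *phkb-1* and *irld-45*, *set-25* over the others at Y58A7A.3 and *met-2* over the others on chromosome III. The flanking windows lie near 0 on both sides of each locus, within 0.857 and 1.16 on the linear scale, and the vertical scales differ between panels.

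The tests of the flanking windows were taken from 1 edgeR quasi-likelihood fit of the 51281 windows with a count, over all 12 libraries. For *met-2* over WT 0 of the 95 flanking windows were called, beside 0.101% of all windows, and 7 had an unadjusted p under 0.05. For *set-25* over WT 0 were called, beside 0.0273% of all windows, and 11 had an unadjusted p under 0.05. DESeq2 also called 0 in both comparisons. The share of all windows at an unadjusted p under 0.05 is not given here, so the 7 and the 11 have no background beside them. The largest log2 fold change in the flanks was 0.26 in size for *met-2* over WT and 0.17 for *set-25* over WT, and the medians were 0.01 and 0.05, beside 0.00 and 0.01 over all windows.

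For *met-2 set-25* over WT 9 flanking windows were higher and 0 lower, beside 4.17% of all windows called, 3.44% as higher and 0.731% as lower (1763 and 375 windows, against 2262 and 128 with TMM factors for scaling). These 9 lay together in 2 groups. To the right of *phkb-1* were 4 windows that share much of their DNA, among them Y67D8A.9 (log2 fold change 0.50, SE 0.096, adjusted p = 0.000404), Y67D8A.6 (0.50, SE 0.098, adjusted p = 0.000509) and the microRNA gene *mir-58.1* (0.45, SE 0.097, adjusted p = 0.00142). *mir-58.1* had 43.9, 54.3 and 49.8 CPM in *met-2 set-25*, 40.7, 42.6 and 29.6 CPM in *met-2*, and 32.8, 35.4 and 34.9 CPM in *set-25*, against 34.1, 41.0 and 33.1 CPM in WT. To the left of Y58A7A.3 were the 4 start windows of *mlk-1*, which encodes a MAP kinase kinase kinase, and Y58A7A.10 (0.43, SE 0.083, adjusted p = 0.000455). These windows overlap each other too, and 2 of the *mlk-1* windows have identical counts. The 9 calls therefore come from 2 places and are not 9 separate observations. The *mlk-1* windows had log2 fold changes of 0.44 with adjusted p between 0.000530 and 0.000540, and in the first of them there were 35.1, 41.6 and 38.5 CPM in *met-2 set-25*, 31.6, 35.3 and 27.7 CPM in *met-2*, and 28.7, 27.7 and 27.7 CPM in *set-25*, against 25.3, 32.9 and 26.3 CPM in WT.

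All 9 had log2 fold changes of at most 0.50. A property of the libraries also differed, with the highest mean in *met-2 set-25*. This was the share of autosomal counts that fell in 2228 high windows, after the few autosomal windows with the very highest mean CPM were left out. It was 10.3%, 11.6% and 10.6% for *met-2 set-25*, 9.90%, 10.1% and 8.87% for *met-2*, and 9.05%, 9.09% and 9.09% for *set-25*, against 9.33%, 10.1% and 9.05% for WT. With this share as a covariate 0 of the 95 windows were called, and the log2 fold changes of the 9 were 0.01 to 0.13. Over all windows the calls in that fit were 28 higher and 7 lower, against 1763 and 375 without the covariate. The share comes from the same counts and differs between the genotypes, so it and the genotype cannot be told apart. The count was also 0 without *met-2 set-25* replicate 2 or WT replicate 3, and 2 without WT replicate 1.

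Between mutants, 11 flanking windows were higher and 2 lower when *met-2 set-25* was set over *set-25*, beside 11.4% of all windows called (7.64% higher and 3.77% lower, 3917 and 1934 windows, against 4827 and 654 with TMM factors). The 9 windows above were among the 11. With the signal share as a covariate 0 of these 13 were called, and over all windows 9 were higher and 1 lower. For *met-2 set-25* over *met-2* 0 were called, beside 0.404% of all windows, and 23 had an unadjusted p under 0.05. DESeq2 called 2 there, beside 1327 higher and 8 lower over all windows. Up to 5 were called when 1 library was left out (5 without *met-2* replicate 2, 4 without *met-2 set-25* replicate 1 or WT replicate 2). For *set-25* over *met-2* 0 were called, beside 0.0644%, with 7 at an unadjusted p under 0.05, and for the interaction of the 2 alleles 0, beside 0.144%, with 29. DESeq2 called 0 in both. The counts of 23, 7 and 29 at the unadjusted level likewise have no share of all windows beside them. With a replicate block, flanking windows were called for *met-2 set-25* over *met-2* and for the interaction, so the 0 in these contrasts depends on the model. Over all windows the block gave 1472 higher and 171 lower for the first, against 188 and 19 without it. For the interaction it gave 1137 and 266, and DESeq2 831 and 12, against 54 and 20.

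The other genes of the members' families and pathways were taken as lists, 207 windows of 158 genes outside the loci. For *met-2 set-25* over WT 7 were higher and 1 lower, beside 3.44% and 0.731% of all windows (8 higher and 0 lower with TMM factors), with a median log2 fold change of -0.04, as over all tested windows (-0.04). For *met-2* over WT and for *set-25* over WT it was 0 higher and 2 lower, beside 0.0312% and 0.0156% of all windows called lower, with medians of 0.00 in both (0.00 and 0.01 over all windows). The lists were chosen with results of these data known, so their counts are a description. All 7 windows called higher in *met-2 set-25* lay on chromosome X. The share of windows called higher on that chromosome is not given here, so the 7 are not set against it. The count of 8 in *met-2 set-25* was 1 without *met-2 set-25* replicate 2 or WT replicate 3, 4 without WT replicate 1, 13 without *met-2* replicate 3 and 14 without WT replicate 2.

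In the glycogen list, which holds genes of the pathway of *phkb-1*, 6 of 14 windows (7 genes) were higher in *met-2 set-25* over WT and 0 in either other mutant, beside 3.44% of all windows called higher in *met-2 set-25*. They were start windows of only 2 genes, both on chromosome X, and the 3.44% is over all chromosomes. Of the *gyg-1* windows, 2 cover the same interval with identical counts. *gyg-1*, which encodes glycogenin, the protein that primes glycogen synthesis, had 35.4, 39.7 and 34.3 CPM in *met-2 set-25*, 30.6, 31.2 and 24.7 CPM in *met-2*, and 23.9, 24.7 and 26.5 CPM in *set-25*, against 24.4, 30.04 and 23.4 CPM in WT, in the first of its 3 windows (log2 fold change of *met-2 set-25* over WT 0.49, SE 0.085, adjusted p = 0.000127). H18N23.2 had a log2 fold change of 0.27 (SE 0.061, adjusted p = 0.00200) in the window at X:17640596-17642295, the one of its 3 called windows with the smallest adjusted p. With the signal share as a covariate these 6 windows had log2 fold changes of 0.06 to 0.16 and were not called, as was the case for nearly all windows called in this comparison.

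The *irld* list (57 windows of 47 genes) held 0 higher and 1 lower window in *met-2 set-25* over WT and none called in the single mutants. *irld-62*, named after its values were seen, was the 1 lower window (log2 fold change -0.23, SE 0.059, adjusted p = 0.00641), and with TMM factors for scaling it was not called (-0.20, adjusted p = 0.0205). The Mediator list (42 windows of 28 genes), the Arf list (17 windows of 8 genes) and the list of mitochondrial proteases (11 windows of 7 genes) held no called window in any mutant over WT, with 11, 9 and 1 windows at an unadjusted p under 0.05 for *met-2 set-25*, 2, 3 and 1 for *met-2*, and 3, 0 and 5 for *set-25*. The share of all windows at that unadjusted level is not given here, so it cannot be said whether these counts are unusual. DESeq2 called 8 windows over all lists in *met-2 set-25* and 2 in each single mutant.

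The *srd* list (66 windows of 61 genes) held 1 higher window in *met-2 set-25* over WT and 2 lower windows in each of *met-2* and *set-25*. The 2 lower windows were 2 of the 4 of *srd-60*, a chemoreceptor gene of the same class as *srd-74*. Both had 1.15, 1.26 and 1.07 CPM in *met-2 set-25*, 0.274, 0.265 and 0.408 CPM in *met-2*, and 0.349, 0.435 and 0.308 CPM in *set-25*, against 1.44, 1.01 and 1.17 CPM in WT. The log2 fold change over WT was -1.91 in *met-2* (SE 0.201, adjusted p = 2.67e-10) and -1.69 in *set-25* (SE 0.202, adjusted p = 4.85e-08). Each of these windows sums 2 intervals (3400 bp) and the values of both are identical, so the loss cannot be placed at 1 of them, and the level of at most 1.44 CPM is low.

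**Figure D4:**
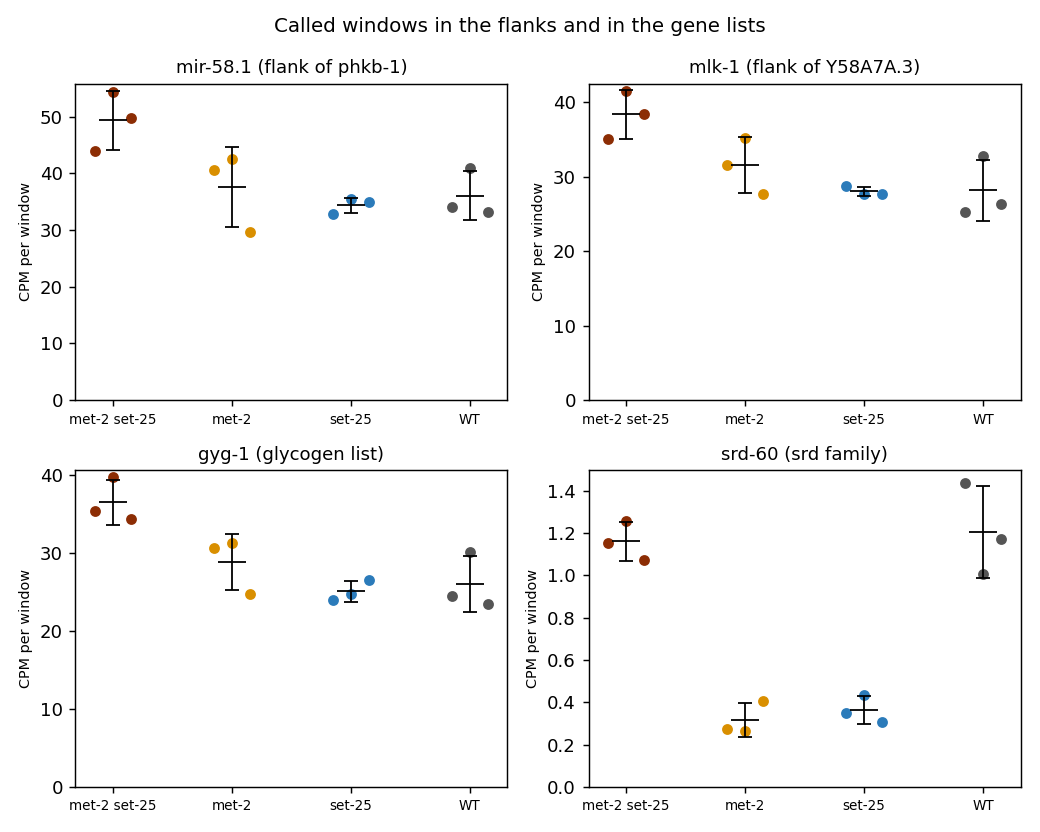
ATAC-seq level (CPM per window, linear axes that start at 0) in each library of *met-2 set-25*, *met-2*, *set-25* and WT at *mir-58.1* beside the *phkb-1* locus, *mlk-1* beside Y58A7A.3, *gyg-1* of the glycogen list and *srd-60* of the *srd* list. Points are libraries, and bars give the mean and SD of 3. *met-2 set-25* is highest at the first 3, by log2 fold changes of 0.44 to 0.49 over WT, and at *srd-60* the *met-2* and *set-25* libraries lie below those of *met-2 set-25* and WT.

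The genes whose levels were most like each locus over the 12 libraries did not share its size of change. By Pearson r on log2(CPM + 0.1), the nearest to the *phkb-1* locus were *grl-24* (0.88), C54E4.12 (0.87) and D2021.4 (0.87), and to *irld-45* they were *nucl-1* (0.94), F10E9.2 (0.93) and F57C12.2 (0.93). To Y58A7A.3 they were *fbxc-43* (0.92), F07E5.7 (0.91) and Y71F9AR.6 (0.90), and to the chromosome III locus T19C4.1 (0.90), Y17D7C.1 (0.89) and F54D10.4 (0.88). The 12 points share their libraries and their depth, and these are the highest of many values. In Y17D7C.1 the *met-2* mean was 1.40 times that of the 9 other libraries. In the 11 other genes the genotype that stood apart at the locus had a mean 0.884 to 1.15 times that of the rest.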

How the data were processed

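ATAC-seq had been made from sorted body wall muscle of L3 larvae, 3 libraries for each of 4 genotypes. The deposited values were raw read counts per window of a transcript start, in ce10, which the authors made from adaptor-trimmed reads (cutadapt) aligned with bowtie2, with duplicates removed (Picard), read ends shifted for the transposase and counting by QuasR irrespective of strand. bedtools 2.26 and MACS2 are also named in the submitters' processing notes. How reads with several matches were treated is not given in the sources used here. Of the 51519 windows, 762 sum several intervals and 238 held no count and were not tested. Gene names came from the RefSeq table of assembly WBcel235, by transcript accession, for 95.9% of windows. Its coordinates were not used.

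Counts were divided by the library total (CPM). All windows with a count were fitted with edgeR 4.0.16 (R 4.3.3, quasi-likelihood test, library totals as sizes, genotype as the only factor), with Benjamini-Hochberg adjustment and calls at an FDR below 0.01, the threshold the study used. The member windows, the gene lists and the tests were chosen with earlier results of these data known. Members were described and not tested, because their counts chose them. Flanking windows lay within 30 kb and overlapped no member. The text names the members, the nearest flanking window on each side, the 8 called flanking windows and 6 called list windows with the smallest FDR, and for each locus the 3 genes with the highest Pearson r. A floor of 3 counts stood in where all libraries of a genotype were at 0, and a pseudocount of 0.1 CPM was added before logs. With 3 libraries against 3, an exact permutation test of 1 value could not go below 0.1, so none was used. Alternatives were DESeq2 1.42.0, TMM factors, a filter on low counts, the likelihood ratio test, only the compared genotypes, a replicate block, a flank of 15 kb, an FDR of 0.05, a pseudocount of 1 CPM, leaving out each library and, chosen after seeing the data, the signal share as a covariate. No genome sequence was used here, so no sequence is shown.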

Additional observations from a re-analysis of the deposited data

Results flagged for a closer look

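In 8 windows the 3 *met-2* libraries all lay on one side of the WT mean and the 3 *met-2 set-25* libraries all on the other side of the *set-25* mean, and these differences were not tested, since the windows were chosen on their counts. Values are log2 ratios of mean CPM with a pseudocount of 0.1 CPM, first *met-2* over WT and then *met-2 set-25* over *set-25*. They were 0.94 and -0.15 at *mdt-21*, 0.89 and -0.12 at the first C24H11.5 window, 0.99 and -0.12 at *srd-74*, 1.99 and -0.11 at Y67D8A.10, and 6.37 and -0.05 at each of the 3 first *phkb-1* windows and at that of the unnamed transcript. At *mdt-21* the loss of *set-25* also went both ways, with 0.10 for *set-25* over WT and -0.99 for *met-2 set-25* over *met-2*. At *phkb-1* and Y67D8A.10 all 3 mutants were at 1 level and WT at another, so the first ratio compares a mutant with WT and the second compares 2 mutants.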

How the results depend on the processing

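The 42 log2 ratios of members over WT kept their sign in all of 420 alternative values, and 404 of these lay within 1 SD of the value reported. The 16 others came from a pseudocount of 1 CPM at *phkb-1*, the unnamed transcript, Y67D8A.10 and Y58A7A.3. Scaling moved them by at most 0.04, and leaving out a library by at most 0.08 in windows above the floor. The counts of called windows in the flanks and lists depended more on the processing. With the signal share as a covariate, flanking windows called fell to 0 for *met-2 set-25* over WT (9 reported) and to 0 for *met-2 set-25* over *set-25* (13 reported), and list windows for *met-2 set-25* over WT to 0 (8 reported). At an FDR of 0.05 the flanks held 8 for *met-2 set-25* over *met-2* (0 reported), 32 for *met-2 set-25* over *set-25* and 2 for the interaction (0 reported), and the lists held 19. For *met-2 set-25* over *met-2* DESeq2 called 2 and the likelihood ratio test 3 in the flanks. The replicate numbers were not taken to pair the libraries, because deviations of libraries with the same number were correlated above 0.1 in only 6 of 18 pairs (mean 0.0909, range -0.158 to 0.399). These 6 were the pairs of replicates 2 and 3 among *met-2 set-25*, *met-2* and WT. With a replicate block the flanks held 9 for *met-2 set-25* over *met-2*, 20 for *met-2 set-25* over *set-25* and 5 for the interaction, and the lists 13. Over all windows the block gave 1472 higher and 171 lower for *met-2 set-25* over *met-2*, against 188 and 19 without it. For the interaction it gave 1137 and 266, against 54 and 20. The count of 0 called flanking windows in these 2 contrasts therefore depends on leaving the block out. The block changed no other count in the flanks or lists by over 1.5 times.

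Leaving out each library in turn gave 0 to 10 flanking windows for *met-2 set-25* over WT, 0 to 5 for *met-2 set-25* over *met-2*, 10 to 15 for *met-2 set-25* over *set-25* and 1 to 14 list windows. The flank count for *met-2 set-25* over WT was 0 without *met-2 set-25* replicate 2 or WT replicate 3 and 2 without WT replicate 1. That for *met-2 set-25* over *met-2* was 4 without *met-2 set-25* replicate 1 or WT replicate 2 and 5 without *met-2* replicate 2. The list count was 1 without *met-2 set-25* replicate 2 or WT replicate 3, 4 without WT replicate 1, 13 without *met-2* replicate 3 and 14 without WT replicate 2. All other counts stayed as reported, at 0 in the flanks and at 2 for the lists in *met-2* and in *set-25* over WT. The causes of these differences were not tested. Depth limits the empty windows, where 3 counts correspond to 0.0598 CPM in the shallowest library.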

Other observations

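Windows outside the 4 loci had the same kind of split, with 1 genotype apart from the 9 other libraries and a log2 ratio beyond 0.5. There were 38 of *met-2 set-25*, 10 of *met-2*, 0 of *set-25* and 2 of WT. Those described here were named after their values were seen, and none was tested for this pattern. At 21ur-12617 *set-25* (5.98 to 6.50 CPM) was nearly as low as *met-2 set-25* (5.42 to 5.59 CPM), so 2 genotypes were low there. Some of the 38 share the same interval and counts, such as those of C30E1.9. Of the 38 of *met-2 set-25* all but 21ur-12617, which lies inside *set-25*, and *linc-165* were higher in that mutant, among them Y47H10A.4 with a mean of 51.8 CPM in *met-2 set-25*, against 25.5 CPM in the 9 other libraries, and Y47H10A.5 with 38.6 CPM, against 22.3 CPM. Y17D7C.6, near Y17D7C.1 on chromosome V, had 2 overlapping windows with a mean of 48.6 and 48.7 CPM in *met-2*, against 33.8 and 34.2 CPM in the 9 other libraries. Of the 10 such windows of *met-2* outside the loci, the 8 others sum 3 intervals each (5100 bp) among the histone genes of chromosome II, ZK131.12, ZK131.13, *his-9*, *his-12*, *his-13*, *his-16*, *his-25* and *his-43*, and had 0.0040 CPM in *met-2*, against 0.504 CPM in the others. These 8 share the same counts, and the interval the reads came from cannot be told. The 2 such windows of WT outside the loci were those of *mct-1* and *mct-2* on chromosome V, which sum 2 intervals (3400 bp) and had 11.1 CPM in WT, against 5.28 CPM in the 9 mutant libraries, which ranged between 2.15 and 10.4 CPM.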
